A study of Mus musculus with 7 samples.

Results

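PRC1.6 is a variant Polycomb repressive complex 1, a nuclear assembly that keeps genes of the germline silent in cells that should not use them. The transcripts of 10 of its subunits, *Mga*, *Max*, *L3mbtl2*, *Pcgf6*, *Ring1*, *Rnf2*, *Rybp*, *Yaf2*, *Cbx3* and *Wdr5*, are described here in testes with and without *Meioc*. They were chosen by name, as the subunits other than *E2f6*, and make up 10 of the 21928 genes and 22 of the 43020 transcripts that could be matched to a gene. Estimated counts and TPM (transcripts per 1000000, a level per unit of transcript length) were summed over all transcripts of a gene, and *Mga* and *Max* were also followed transcript by transcript.

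The measurements are bulk RNA-seq of testes enriched for preleptotene spermatocytes, from 4 wild-type and 3 *Meioc* KO mice on the C57BL/6N strain. The KO mice carried the null allele *Meioc* tm1.1Dpc, which removes MEIOC, a germ cell partner of the RNA-binding protein YTHDC2. Both groups received daily WIN 18,446, which blocks retinoic acid synthesis, from P2 to P8 (0.1 mg per g of body weight) and retinoic acid on P9 (0.0125 mg per g) so that spermatogenesis ran in step, and testes were taken 6.75 days after that. Each library came from 1.5 whole testes of 1 pup, so RNA of somatic cells is part of every value, and fewer cells of a type and less RNA per cell cannot be told apart. ERCC spike-in mix 1 went into wild-type and mix 2 into KO samples, and spike-ins were not used here.

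In PRC1.6, MGA and MAX form a heterodimer of basic helix-loop-helix proteins that binds E-box DNA, and MGA also carries a T-box domain. L3MBTL2 is a further subunit, and PCGF6 defines the assembly among the variant complexes. RING1 and RNF2 (RING1B) are alternative E3 ligases that ubiquitinate histone H2A, and RYBP or YAF2 binds them in place of the CBX subunit of canonical PRC1. CBX3 (HP1γ) reads methylated histone H3, and WDR5 is a WD40 protein shared with histone methyltransferase complexes. Loss of MAX, MGA, PCGF6 or L3MBTL2 in embryonic stem cells releases germline genes, which is why the complex is studied at entry into meiosis.

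The annotated transcripts of *Max* and *Mga* differ by short exons, and the stretches of these exons are shown because they are part of what divides reads between the transcripts. The transcripts also differ at their ends: Mga-201 stops upstream of the other *Mga* transcripts, and Max-205 is shorter than the other *Max* transcripts at both ends. All sequences are from the GENCODE vM21 transcripts on GRCm38 and read 5′ to 3′ along the mRNA. *Max* lies on the minus strand of chromosome 12, and Max-202 and Max-205 contain an exon of 27 bases (chr12:76961263-76961289, 9 codons ahead of the basic region) that Max-201 lacks; its letters are in capitals. Max-205 also lacks the next exon, of 108 bases.
Max-201: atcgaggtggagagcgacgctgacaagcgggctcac
Max-202: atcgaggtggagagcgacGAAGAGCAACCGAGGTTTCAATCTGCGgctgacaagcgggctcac
Max-205: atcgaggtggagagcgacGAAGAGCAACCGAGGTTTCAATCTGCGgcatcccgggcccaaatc

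*Mga* lies on the plus strand of chromosome 2, and Mga-202 skips a coding exon of 624 bases, or 208 codons (chr2:119941222-119941845), that Mga-201, Mga-203 and Mga-204 include. Capitals mark the first bases after the end of the shared upstream exon. They belong to the 624-base exon in Mga-201 and to the exon that follows it in Mga-202.
Mga-201: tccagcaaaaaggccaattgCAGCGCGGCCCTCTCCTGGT
Mga-202: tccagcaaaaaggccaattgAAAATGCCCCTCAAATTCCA

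A further segment of 117 bases in the following exon is kept in Mga-202 and Mga-204. Mga-203 lacks exons of 132 and 105 bases upstream. Few 31-base words, the length at which kallisto matches reads by default, were found in only 1 annotated transcript. Max-201 had 45 such words of 1896 (2.37%), Max-202 had 33 of 1912 (1.73%) and Max-205 had 27 of 722 (3.74%). For *Mga* there were 59 in Mga-202 and 26 in Mga-203, while Mga-201 and Mga-204 had 0 and are told apart only by combinations of shared words.

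Libraries held 12537852 to 20552702 estimated counts, and fold changes below are wild type over *Meioc* KO. *Meioc* itself was counted at 466, 658, 662 and 718 CPM (counts per 1000000, scaled by TMM) in wild-type replicates 1 to 4 and at 399, 299 and 412 CPM in KO replicates 1 to 3. Reads on the null allele remained, but the groups did not overlap, and *Meioc* was 0.76 ± 0.16 higher (log2 fold change and standard error; adjusted p = 0.021, quasi-likelihood F test of edgeR with Benjamini-Hochberg adjustment over 13630 genes). All 42 genes of the 10 cell type marker lists had counts in at least 1 library, and 2 of them, the pachytene markers *Acrv1* and *Spag6*, fell under the TPM filter. Summed germ cell markers (*Ddx4*, *Dazl*, *Dppa4*, *Tex101*, *Mael*) stood at 1802 to 2076 CPM in wild type and 1134 to 1326 CPM in the KO; 3 of the 5 were called higher and 1 lower. Summed leptotene and zygotene markers stood at 1094 to 1340 CPM against 519 to 659 CPM, with 3 of 4 called higher. Undifferentiated spermatogonial markers went the other way, at 105 to 125 CPM against 141 to 228 CPM, with 1 of 4 called lower. Differentiating spermatogonial markers stood at 397 to 663 CPM against 296 to 395 CPM, with 1 of 3 called higher, and pachytene markers at 2.92 to 4.65 CPM against 4.72 to 7.01 CPM, with 0 of the 1 tested called by edgeR (unadjusted p under 0.05 for that 1). The differentiating list (*Kit*, *Stra8*, *Ccnd2*) includes *Stra8*, which the paper also used to assign preleptotene spermatocytes. No separate preleptotene list was used. Summed Sertoli markers lay at 868 to 940 CPM against 919 to 944 CPM, with 1 of 5 called lower, and the sums of Leydig, peritubular myoid, endothelial and macrophage markers overlapped between the groups with 0 called by edgeR; 2, 0, 1 and 1 of their genes had an unadjusted p under 0.05. Over all genes tested, 7.77% were called higher, 3.33% were called lower and 30.3% had an unadjusted p under 0.05 (edgeR). The part of these differences in cell content in the values below was not tested.

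Of the 10 subunits, all of which passed the TPM filter, 1 was called higher in wild type (*L3mbtl2*) and 0 lower at an adjusted p under 0.05 by the edgeR test. Over all 13630 genes tested 11.1% were called, 7.77% higher and 3.33% lower. The higher calls were 70.0% of all calls, a split that fell to 47.5% with no scaling beyond library size and to 17.4% on log2(TPM + 1). An unadjusted p under 0.05 was reached by 2 of the 10 subunits, against 30.3% of all genes. The wild-type and KO libraries did not overlap in CPM for 4 of 10 (*L3mbtl2*, *Rybp*, *Yaf2* and *Wdr5*, all higher in wild type), against 26.2% of all genes in either direction. With wild type higher, the share of all genes was 15.4%. *Yaf2* and *Wdr5* have 1 transcript each, and under the TMM scaling of transcripts their groups overlapped. The median log2 fold change was 0.12 for the subunits and -0.0065 for all genes, and 8 of the 10 subunits had a positive value. With no scaling the median of the subunits was 0.040 with 6 of 10 positive, where that of all genes was -0.083, and on log2(TPM + 1) it was -0.11 with 2 of 10 positive, where that of all genes was -0.23. The share of subunits called was thus close to the background, and the value farthest from 0 was the 0.36 of *L3mbtl2*.

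**Figure D1:**
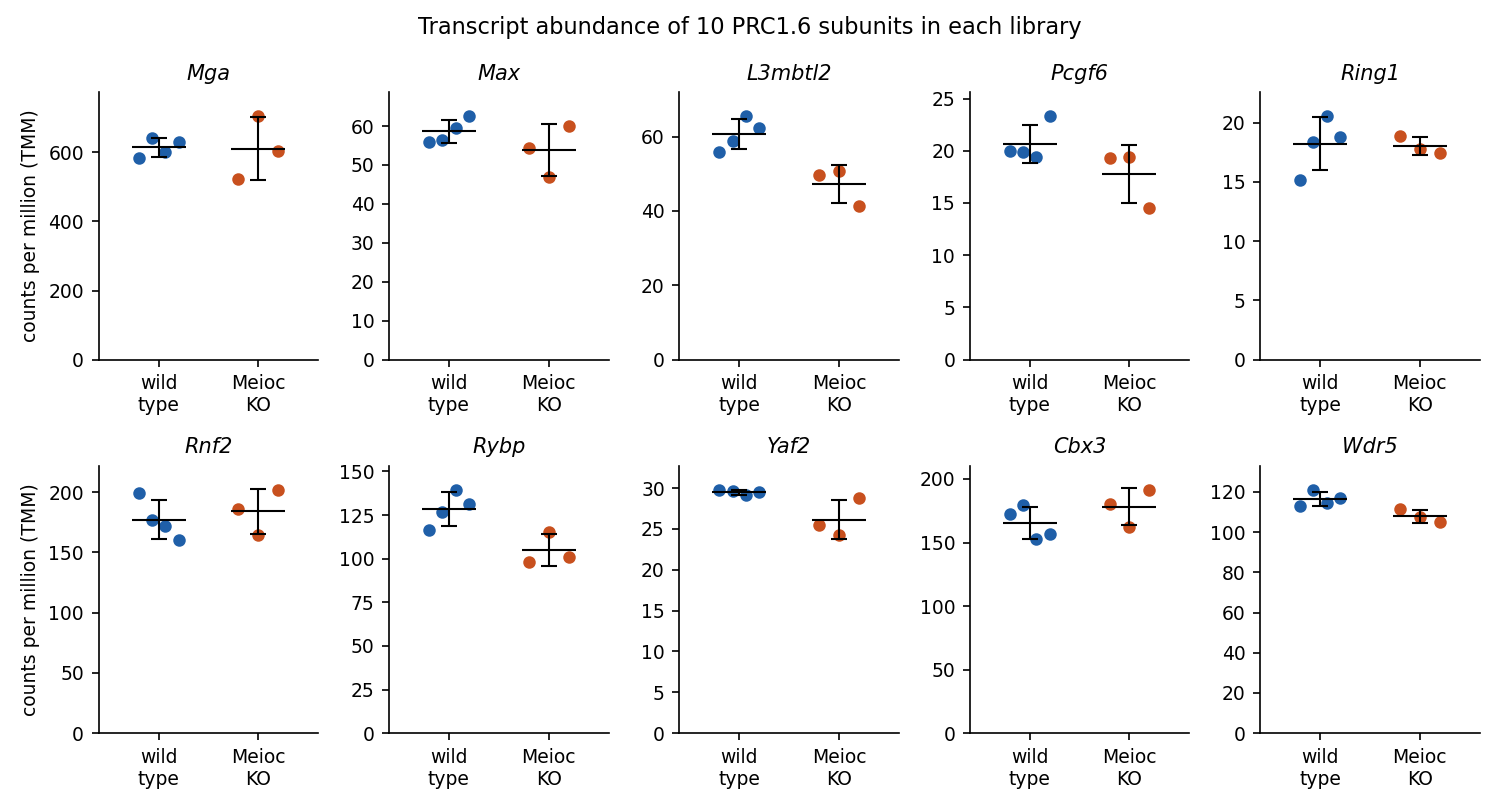
Each panel plots 1 PRC1.6 subunit in TMM-scaled CPM on an axis that starts at 0, with 1 point per library, 4 wild type in blue and 3 *Meioc* KO in orange, and black bars for the mean and SD. The wild-type points of *L3mbtl2* (55.9 to 65.5 CPM) all lie above the KO points (41.3 to 50.8 CPM), whereas those of *Mga*, *Max*, *Pcgf6*, *Ring1*, *Rnf2* and *Cbx3* overlap.

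*Mga*, the scaffold and DNA-binding subunit, was counted at 583, 643, 602 and 629 CPM in wild-type replicates 1 to 4 and at 522, 704 and 605 CPM in KO replicates 1 to 3. KO replicates 1 and 2 were the lowest and the highest of the 7 libraries, so the KO range enclosed that of wild type. The groups differed by 0.0088 on the log2 scale (standard error 0.0996, 95% interval -0.21 to 0.23, adjusted p = 0.96, edgeR). In fold terms the interval ran from 0.862 to 1.17. At 12277 bases on average *Mga* has by far the longest transcript of the 10, and correcting each library for a trend over transcript length moved its log2 fold change to 0.12, still not called. On log2(TPM + 1) it was -0.23 (adjusted p = 0.19, limma), where the median of all genes was also -0.23.

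*Max*, which encodes the obligate partner of MGA and also of MYC and MXD proteins, was counted at 55.9, 56.5, 59.5 and 62.5 CPM in wild type and at 54.5, 46.9 and 60.1 CPM in the KO. KO replicate 2 was the lowest library, KO replicate 3 lay within the wild-type range, and the groups overlapped. This gave a log2 fold change of 0.12 (standard error 0.096, 95% interval -0.093 to 0.34, adjusted p = 0.42 by the same edgeR test). It was 0.034 without KO replicate 2, 0.082 without wild-type replicate 4 and 0.21 without KO replicate 3, and -0.059 on log2(TPM + 1).

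*L3mbtl2*, whose product is an MBT-domain protein that compacts chromatin, was counted at 55.9, 58.9, 65.5 and 62.3 CPM in wild-type replicates 1 to 4 and at 49.7, 50.8 and 41.3 CPM in KO replicates 1 to 3. Every wild-type library lay above every KO library, with KO replicate 3 lowest. The log2 fold change of 0.36 (standard error 0.097, 95% interval 0.14 to 0.58), or 1.29-fold, was called at an adjusted p of 0.043 (edgeR). The call held without wild-type replicate 1 or without KO replicate 1 and ended when any of the other 5 libraries was left out. Over these 7 fits the adjusted p ranged from 0.030 to 0.14 (edgeR), and the smallest log2 fold change, 0.27, was that without KO replicate 3. The fits themselves differed in yield: without wild-type replicates 1 to 4 in turn edgeR called 15.9%, 2.17%, 2.02% and 3.98% of all genes, and without KO replicates 1 to 3 it called 15.5%, 2.59% and 0.961%. *L3mbtl2* was also called by DESeq2 (17.1% of all genes called), with RLE scaling (10.9%) and after removal of the length trend (13.3%), but not with no scaling (12.6%), no TPM filter (7.15%), a TPM filter at 5 (12.9%) or a replicate block (0.8%). In TPM the groups overlapped (17.9 to 21.0 in wild type, 15.0 to 21.0 in the KO), and on log2(TPM + 1) the difference was 0.13 (adjusted p = 0.44, limma), which is 0.36 above the median of all genes on that scale. Its count was split over 3 transcripts, of which ENSMUST00000172748 was listed at 20.0, 0, 20.2 and 21.1 CPM in wild type and at 0, 14.3 and 7.67 CPM in the KO. None of the 3 was called on its own.

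*Pcgf6*, the RING-finger subunit that defines PRC1.6, was counted at 19.9, 19.9, 19.4 and 23.3 CPM in wild type and at 19.3, 19.4 and 14.5 CPM in the KO. Wild-type replicate 4 and KO replicate 3 stood apart at either end, and the remaining 5 libraries lay within 1 CPM of each other. For *Pcgf6* the log2 fold change was 0.22 (standard error 0.13, 95% interval -0.074 to 0.51, adjusted p = 0.29 by edgeR). Without KO replicate 3 it was 0.094.

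The E3 ligase *Rnf2* was counted at 199, 177, 172 and 161 CPM in wild type and at 186, 164 and 202 CPM in the KO. Its paralog *Ring1* was counted at 15.2, 18.4, 20.5 and 18.8 CPM in wild type and at 18.9, 17.8 and 17.4 CPM in the KO. The groups overlapped for both genes. Between the groups the log2 fold change was -0.055 for *Rnf2* (standard error 0.098, 95% interval -0.28 to 0.17, adjusted p = 0.73, edgeR) and 0.018 for *Ring1* (standard error 0.12, 95% interval -0.25 to 0.29, adjusted p = 0.94, edgeR).

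*Rybp*, which encodes the RNF2-binding subunit that stimulates ubiquitination, was counted at 116, 127, 139 and 131 CPM in wild type and at 98.3, 116 and 101 CPM in the KO. The lowest wild-type library and the highest KO library nearly met, without overlap. The log2 fold change of 0.29 (standard error 0.092, 95% interval 0.086 to 0.50) did not pass the threshold (adjusted p = 0.068, edgeR). It was called by DESeq2 (adjusted p = 0.034) and after removal of the trend with transcript length (log2 fold change 0.34, adjusted p = 0.023, edgeR). It was also called without wild-type replicate 1 (adjusted p = 0.037, edgeR). In TPM the groups overlapped (42.1 to 47.0 in wild type, 39.1 to 52.4 in the KO), the difference on log2(TPM + 1) was 0.037 (adjusted p = 0.82, limma), and with no scaling it was 0.21 (adjusted p = 0.13, edgeR). *Rybp* shares 11.4% of its 31-base words with the pseudogene *Rybp-ps*.

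*Yaf2*, the paralog of *Rybp*, was counted within a narrow range in wild type, 29.8, 29.7, 29.1 and 29.5 CPM, and at 25.4, 24.2 and 28.8 CPM in the KO. KO replicate 3 came close to the wild-type libraries but stayed below them. Under the TMM scaling of transcripts it lay above wild-type replicate 3 (29.10 against 28.79 CPM). *Yaf2* differed by 0.17 on the log2 scale (standard error 0.091, 95% interval -0.031 to 0.38, adjusted p = 0.23 by edgeR). On log2(TPM + 1) it was -0.088, which is 0.14 above the median of all genes there.

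*Cbx3* was counted at 172, 179, 152 and 157 CPM in wild type and at 181, 163 and 191 CPM in the KO, with overlapping groups and a log2 fold change of -0.11 (standard error 0.089, 95% interval -0.31 to 0.089, adjusted p = 0.43, edgeR). That value was -0.17 without KO replicate 2, -0.072 without wild-type replicate 3 and -0.055 without KO replicate 3. Its TPM, by contrast, did not overlap: wild-type libraries lay at 233 to 294 TPM and KO libraries at 313 to 349 TPM. On log2(TPM + 1) *Cbx3* was the 1 subunit called, at -0.36 (adjusted p = 0.033, limma with Benjamini-Hochberg adjustment), or -0.13 relative to the median of all genes, on a scale where 18.5% of all genes were called. *Cbx3* shares 24.8% of its 31-base words with 24 other genes, most of them with *Cbx3-ps6*, and how far these words affect its level was not tested.

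*Wdr5* was counted at 113, 121, 114 and 117 CPM in wild type and at 111, 107 and 105 CPM in the KO. The groups lay next to each other without overlap. Under the TMM scaling of transcripts KO replicate 1 (112.719 CPM) lay just above wild-type replicate 1 (112.706 CPM). The log2 fold change of 0.11 had the smallest standard error of the 10 (0.070, 95% interval -0.045 to 0.27, adjusted p = 0.31, edgeR). On log2(TPM + 1) it was -0.13.

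**Figure D2:**
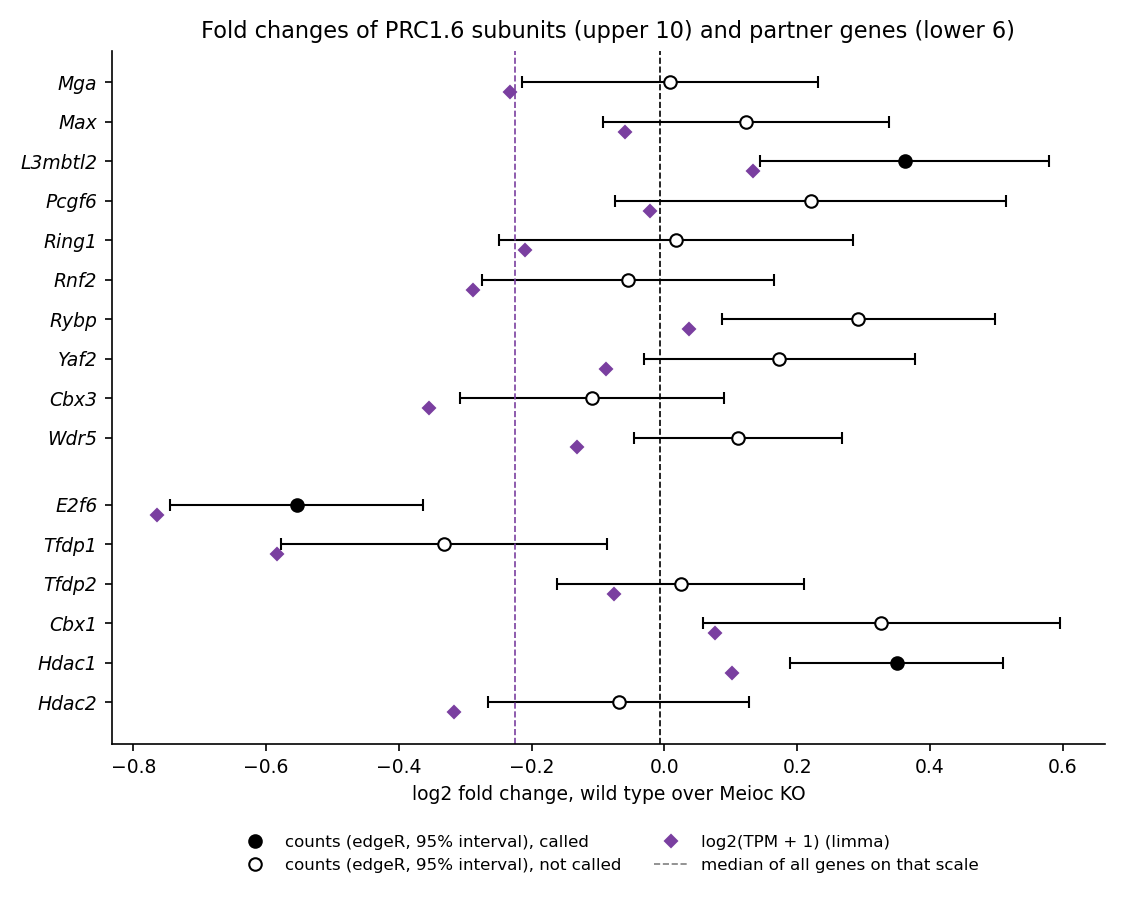
The log2 fold change of wild type over *Meioc* KO is plotted for the 10 subunits and 6 partner genes, as circles with 95% intervals from counts (edgeR, filled where called) and as diamonds on log2(TPM + 1) (limma), with dashed lines at the median of all genes on each scale. The TPM values lie to the left of the count values for all 16 genes, as does their all-gene median (-0.23 against -0.0065). *L3mbtl2*, *E2f6* and *Hdac1* are the filled circles.

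Levels can be compared between genes only per length, in TPM. In wild type the mean TPM was highest for *Cbx3* at 259 ± 26.5 (SD, n = 4), followed by *Rnf2* at 195 ± 28.4 and *Mga* at 83.6 ± 2.56. *Wdr5* (47.7 ± 2.09), *Max* (44.8 ± 4.39), *Rybp* (44.4 ± 2.01) and *Yaf2* (38.6 ± 2.85) formed a middle group whose neighbouring ranges overlapped. *L3mbtl2* (19.7 ± 1.32) and *Pcgf6* (18.6 ± 1.69) also overlapped, and *Ring1* was lowest at 8.84 ± 0.780. Of the 9 neighbouring pairs in this order 5 overlapped in range, and the mean of *Cbx3* was 29.3 times that of *Ring1*. In the KO the order was the same except that *Pcgf6* (19.2 ± 4.14 TPM, n = 3) stood above *L3mbtl2* (18.0 ± 3.00 TPM, n = 3), a pair that overlapped. The summed level of the 10 genes was 761 ± 61.2 TPM (SD, n = 4) in wild type and 899 ± 47.9 TPM (SD, n = 3) in the KO, with wild-type replicate 1 (851) above KO replicate 1 (847). In CPM the sums were 1389 ± 30.1 and 1348 ± 75.4, so the 2 scales placed the groups in opposite order, by -0.24 and 0.043 on the log2 scale. The median of all genes was -0.23 on log2(TPM + 1) and -0.0065 in counts. The sums also weigh the genes differently: *Mga* had the largest part in CPM (a mean of 614 in wild type), and *Cbx3* and *Rnf2* in TPM.

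**Figure D3:**
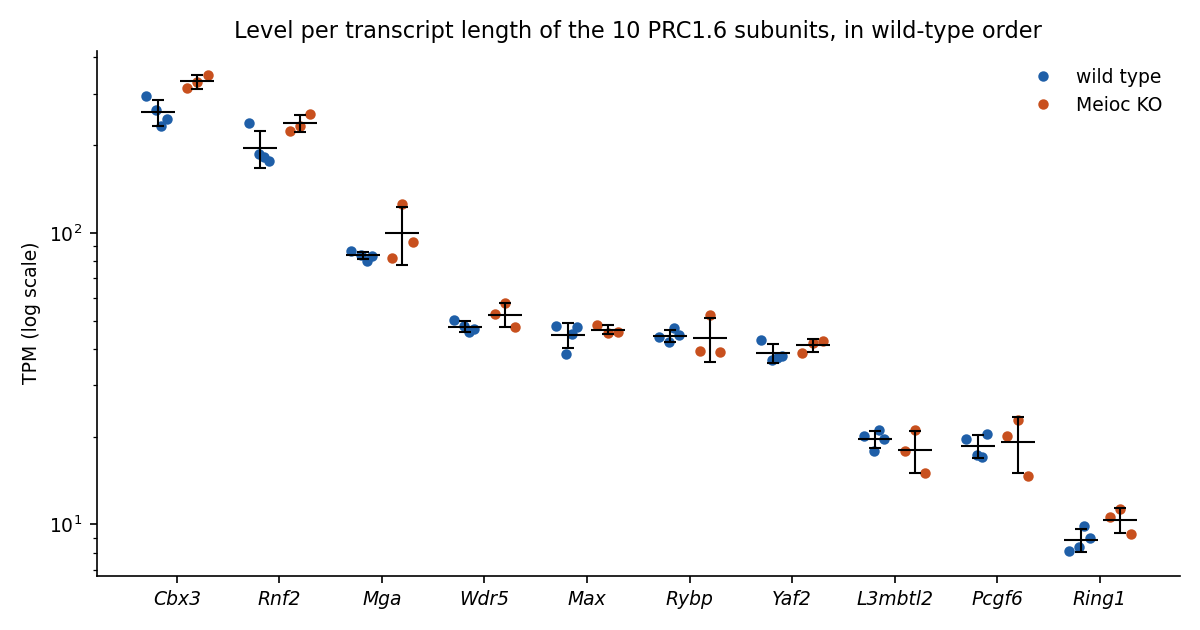
TPM of the 10 subunits on a log axis, in the order of their wild-type means, with 1 point per library (4 wild type in blue, 3 *Meioc* KO in orange) and black bars for the mean and SD. *Cbx3* and *Rnf2* lie at 176 TPM or more in each library and *Ring1* at 11.3 TPM or less, and in each group the ranges of *Wdr5*, *Max*, *Rybp* and *Yaf2* run into each other.

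Ratios within a library do not depend on how libraries are scaled to each other. *Rnf2* was 18.5 to 29.3 times as abundant as *Ring1* per length in wild type and 20.6 to 27.6 times in the KO. These ratios depend on how reads were divided between the *Rnf2* transcripts, whose uncertainty is not in them. ENSMUST00000186415 held a wild-type mean of 96.5 of the 195 TPM of *Rnf2*, but only 34.9 CPM. In counts the wild-type means were 177 CPM for *Rnf2* and 18.2 CPM for *Ring1*. On average the log2 ratio of *Ring1* over *Rnf2* was -4.46 ± 0.296 (SD, n = 4) and -4.52 ± 0.233 (SD, n = 3), with p = 0.743 (two-sided exact permutation test over 35 splits). *Rybp* and *Yaf2* were near parity, at ratios of 1.03 to 1.26 in wild type and 0.917 to 1.25 in the KO (exact permutation p = 0.343). The log2 ratio of *Mga* over *Max* was 0.85, 1.13, 0.83 and 0.82 in wild type and 0.76, 1.46 and 1.02 in the KO, with KO replicate 2 highest (exact permutation p = 0.514).

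*Mga* over *E2f6* was the 1 ratio without overlap. It was 4.15, 4.68, 4.83 and 4.84 in wild-type replicates 1 to 4 and 2.73, 3.41 and 3.28 in KO replicates 1 to 3. The difference of 0.56 on the log2 scale had the smallest p that 4 against 3 libraries allow, 0.0571 (two-sided exact permutation test), or 0.229 after Benjamini-Hochberg adjustment over the 4 ratios. The design therefore cannot pass 0.05, and leaving out single libraries gave differences of 0.46 to 0.63. *E2f6* was counted at 25.7 to 28.9 CPM in wild type and 38.6 to 42.5 CPM in the KO, while *Mga* overlapped.

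**Figure D4:**
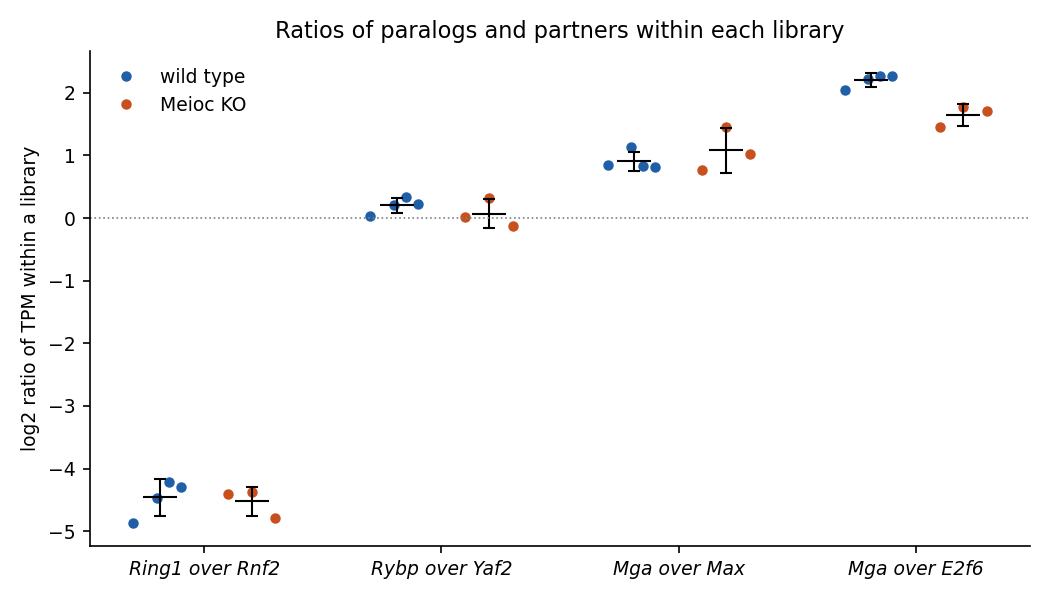
The log2 ratio of TPM within each library is plotted for paralog and partner pairs, with 1 point per library (4 wild type in blue, 3 *Meioc* KO in orange), black bars for the mean and SD, and a dotted line at equal levels. *Ring1* over *Rnf2* lies between -4.87 and -4.21 in all libraries, and the groups separate for *Mga* over *E2f6*, with wild-type ratios of 4.15 to 4.84 above KO ratios of 2.73 to 3.41.

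At the level of transcripts, 14 of 21920 (0.0639%) were called between the groups, and 0 of the 16 tested transcripts of the 10 subunits were (edgeR, adjusted over all transcripts). In CPM the groups were fully separate for 1 of the 16, the single transcript of *Rybp*, against 18.2% of all transcripts tested. Of the 22 transcripts, 8 were listed at 0 in at least 1 library, and 1 of *Rnf2* in every library. The tables hold no resampling of the division of reads, so its uncertainty is not in these tests.

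Mga-201 took most of the *Mga* counts, with shares of 69.3%, 79.2%, 78.7% and 77.8% in wild type and 77.7%, 78.1% and 77.0% in the KO. Mga-202, without the 624-base exon, took 24.0%, 15.4%, 21.1% and 16.0% in wild type and 22.3%, 21.6% and 23.0% in the KO. The KO values lay inside the wild-type range (exact permutation p = 0.343). Mga-203 was listed at 38.9 CPM in wild-type replicate 1 and at 2.09 CPM or less in all others. Mga-204 was listed at 33.9 and 38.6 CPM in wild-type replicates 2 and 4 and at or near 0 elsewhere. The 2 wild-type libraries with Mga-204 were also those with the lowest Mga-202 shares. Summed over Mga-202 and Mga-204, which both keep the 117-base segment, the share was 20.8% to 24.0% in wild type and 21.6% to 23.0% in the KO, and in wild type this range was narrower than that of either transcript alone. In the KO, where Mga-204 was near 0, it was that of Mga-202. The log2 fold change was -0.033 for Mga-201 (standard error 0.12) and -0.24 for Mga-202 (standard error 0.15, 95% interval -0.60 to 0.12, adjusted p = 0.47, edgeR).

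The *Max* counts went almost wholly to Max-201 in 5 of the 7 libraries, at 94.6%, 99.1% and 95.4% in wild-type replicates 1 to 3 and 95.3% and 96.5% in KO replicates 1 and 2. In wild-type replicate 4 and KO replicate 3 its share was 63.7% and 9.89%, and Max-202, which adds the 27-base exon, took 31.2% and 89.5%. Max-202 was listed at exactly 0 in the other 5 libraries and at 19.5 and 54.4 CPM in these 2, so it failed the TPM filter and was not tested. The short Max-205 took 0.942% to 5.42% in wild type and 0.567% to 4.65% in the KO. Transcripts with the 27-base exon together made up 5.42%, 0.942%, 4.59% and 36.3% in wild type and 4.65%, 3.51% and 90.1% in the KO (exact permutation p = 0.571). A single library of each group thus held the high shares, and the direction of the mean difference turned from -21.0 to 7.72 percentage points without KO replicate 3.

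Wild-type replicate 4 (62.5 CPM) and KO replicate 3 (60.1 CPM) also had the highest *Max* totals in CPM, the other 5 libraries lying at 46.9 to 59.5 CPM. In TPM they were not the highest: *Max* stood at 48.0, 38.5, 45.1 and 47.5 in wild type and at 48.4, 45.4 and 45.7 in the KO. For Max-201 the log2 fold change was 0.56 with a standard error of 0.63 (95% interval -0.95 to 2.07), and for Max-205 it was 0.63 with a standard error of 0.81, too wide to place either. Without KO replicate 3 these values were 0.072 and 0.16. The test of transcript use, which asks whether a transcript changes relative to the others of its gene, called 38 of 14014 transcripts (0.271%), in 0.582% of 5499 genes by the Simes method, and none of *Mga* or *Max* (adjusted p = 1.0 for each, edgeR's diffSpliceDGE). The 10 share comparisons for *Mga* and *Max* gave exact permutation p from 0.229 to 0.971.

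**Figure D5:**
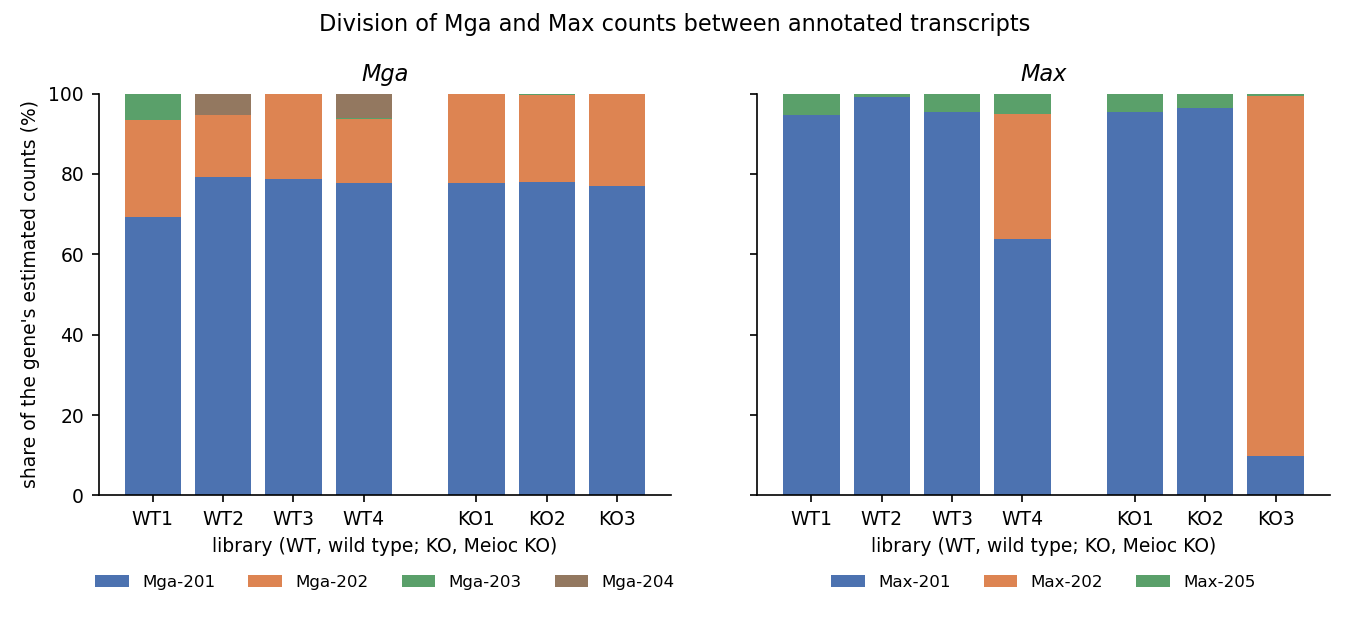
Stacked bars show the percentage of each library's *Mga* and *Max* estimated counts assigned to each annotated transcript, for 4 wild-type and 3 *Meioc* KO libraries. Mga-201 takes 69.3% to 79.2% throughout, whereas Max-202 appears only in wild-type replicate 4 (31.2%) and KO replicate 3 (89.5%).

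Among the genes that work with these subunits, the 6 further components usually listed for PRC1.6 held 2 called genes, 1 in each direction, against 11.1% of all genes called (7.77% higher and 3.33% lower). *E2f6*, an E2F without an activation domain that anchors the complex at E2F sites, was lower in wild type (log2 fold change -0.55 ± 0.085, with its standard error; adjusted p = 0.010, edgeR). *Hdac1*, a histone deacetylase, was higher, at 75.5, 78.1, 74.2 and 73.3 CPM in wild type and at 60.5, 55.9 and 60.7 CPM in the KO. The difference of 0.35 ± 0.072 (log2, standard error) was called (adjusted p = 0.019, edgeR), but only the fits without wild-type replicate 1 and without KO replicate 1 among the 7 that left out a library called it again (adjusted p from 0.019 to 0.068). *Hdac1* overlapped in TPM and was not called on log2(TPM + 1), at 0.10 (adjusted p = 0.39, limma). *Hdac2* overlapped in counts, at 196 to 227 CPM against 204 to 243 CPM. In TPM it did not, at 210 to 254 against 266 to 302, and it was called lower at -0.32 on log2(TPM + 1) (adjusted p = 0.043, limma). That is -0.091 relative to the median of all genes, on a scale where 18.5% of all genes were called. In counts its log2 fold change was -0.069 (adjusted p = 0.63, edgeR).

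*Tfdp1*, the dimer partner of E2F proteins, did not overlap between groups, with 97.8, 78.3, 72.5 and 72.4 CPM in wild type and at 103, 98.2 and 101 CPM in the KO. Its log2 fold change of -0.33 had an adjusted p of 0.077 by edgeR, and it was called by DESeq2 (adjusted p = 0.037) and, at -0.58, on log2(TPM + 1) (adjusted p = 0.028, limma). The -0.58 is -0.36 relative to the median of all genes on that scale. Wild-type replicate 1 lay close to the KO libraries, and without it the value was -0.44 (adjusted p = 0.0067, edgeR). *Tfdp2* had a value of 0.024 and *Cbx1*, a paralog of *Cbx3*, one of 0.33 (adjusted p = 0.10, edgeR). Without wild-type replicate 1 *Cbx1* was called at 0.43 (adjusted p = 0.0094, edgeR), while on log2(TPM + 1) it was at 0.076 (adjusted p = 0.58, limma).

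Other PCGF proteins define other variant or canonical PRC1 complexes. Of the 5 PCGF paralogs, 1 was called, against 11.1% of all genes: *Pcgf5*, of the variant complex PRC1.5, stood at 80.8 to 89.8 CPM in wild type and 68.3 to 72.2 CPM in the KO, with a log2 fold change of 0.26 (adjusted p = 0.048, edgeR). *Pcgf2* had the lowest value, -0.30 (adjusted p = 0.31, edgeR), with wild-type replicate 1 at 12.3 CPM above the other wild-type libraries at 7.07 to 8.29 CPM. Without that library it was called at -0.49 (adjusted p = 0.044, edgeR). The call of *Pcgf5* was kept without wild-type replicate 1 and ended without any other single library. In TPM its groups overlapped, with means of 70.2 in wild type and 72.6 in the KO. The median of all genes on log2(TPM + 1) was -0.23.

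MAX also pairs with MYC and MXD proteins and with MNT, and the related MLX forms a parallel branch. Of the 11 genes of this network, 0 were called by edgeR, against 11.1% of all genes. An unadjusted p under 0.05 (edgeR) was reached by 0 of them, against 30.3%, and 0 were called by DESeq2, against 17.1%. Their median log2 fold change was -0.057, from -0.42 for *Mnt*, where KO replicate 2 stood alone at 28.5 CPM against 13.0 to 17.1 CPM in the others, to 0.34 for *Mxd3*. On log2(TPM + 1) limma called 1 of the 11, *Mxi1*, at -0.34 (adjusted p = 0.040), on the scale where 18.5% of all genes were called and the median of all genes was -0.23. In counts *Mxi1* stood at 174 to 184 CPM in wild type and at 193 to 194 CPM in the KO and was not called (-0.11, adjusted p = 0.29, edgeR).

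Germline genes known as PRC1.6 targets in embryonic stem or somatic cells are the last list. Of 13 such genes, wild type was called higher for 10 and lower for 0 (7.77% and 3.33% of all genes), with a median log2 fold change of 0.68, against 0.12 for the subunits and -0.0065 for all genes. The called genes were *Stag3*, *Smc1b*, *Slc25a31*, *Tuba3a*, *Mael*, *Taf7l*, *Tdrkh*, *Dazl*, *Sycp3* and *Gm4969*, now named *Meiosin*. The values ran from 0.24 for the RNA helicase gene *Ddx4* (adjusted p = 0.081, edgeR) to 2.95 for *Gm4969*, the partner of STRA8 (± 0.22, standard error; adjusted p = 0.00058, edgeR). The list was chosen with earlier results of these data known, so its share of calls is a description and not a test. *Mael*, *Dazl* and *Ddx4* are also among the germ cell markers above, and *Stra8*, also in the list, is among those listed for differentiating spermatogonia. The paper used *Stra8* for preleptotene spermatocytes as well. *Stra8* stood at 126, 148, 262 and 409 CPM in wild type and at 157, 87.3 and 77.1 CPM in the KO. It was not called (log2 fold change 1.14, adjusted p = 0.095, edgeR). How far germ cell content enters these values was not tested.

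Across the 7 libraries, the genes most like *Mga* in log2 CPM were *Qk*, *Rfx7* and *Zup1*, with Pearson's r of 0.96, 0.96 and 0.95 among 10242 genes compared. Those most like *Max* were *Zc2hc1a*, *Mfap4* and *Tmsb15l*, with 0.99, 0.98 and 0.97. These are descriptions over 7 points that share the spread of single libraries.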

How the data were processed

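RNA-seq of preleptotene-enriched mouse testes was grouped by the genotype in the labels, with 4 wild-type and 3 *Meioc* KO libraries. According to the paper's methods the authors trimmed stranded, ribosomal-RNA-depleted reads with cutadapt 1.8 and ran kallisto 0.44.0 with sequence-bias correction on GENCODE Basic vM15 (mm10). The authors deposited an estimated count for each protein-coding transcript, without scaling between libraries; it need not be whole, since kallisto divides reads that match several transcripts. The authors also deposited TPM, renormalized over protein-coding transcripts, whose library totals are fixed, so its all-gene median can shift between groups.

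Transcripts were matched by Ensembl identifier to GENCODE vM21 on GRCm38. Of 43139 transcripts, 119 were not matched; these held 0.247% to 0.282% of counts and were left out. Counts and TPM were summed by gene, counts were rounded and scaled by TMM, and 13630 genes reached 1 TPM in 3 or more libraries. edgeR 4.0.16 in R 4.3.3 compared genotypes in these genes by its quasi-likelihood F test with no further covariates, and p-values were adjusted over all of them by the Benjamini-Hochberg method (threshold 0.05). Transcripts were tested in the same way, and transcript use by diffSpliceDGE. For ratios and shares a two-sided exact permutation test was used (35 splits, smallest p 0.0571). CPM refers to all matched counts of a library. Alternatives were DESeq2 1.42.0, limma 3.58.1 on log2(TPM + 1) and log2(TPM + 0.1), RLE or no scaling, removal of a lowess trend with transcript length, other TPM filters, leaving out each library and a replicate block. The scripts were tested on simulated data.

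The text names the 10 subunits, every *Mga* and *Max* transcript, 6 partner genes and *Meioc*. Of the other lists it names the called genes and the highest and lowest value, and for likeness the 3 highest correlations among genes averaging 10 CPM or more. *Mxi1*, *Stra8* and the *L3mbtl2* transcript were added after their values were seen. Members and lists were chosen with earlier results of these data known. Every pair of libraries differed beyond counting noise (by 7.86 times or more), and all 7 were kept, each from its own pup. Wild-type replicate 1 differed less from KO replicate 1 (11.2 times) than from wild-type replicates 2 to 4 (14.4, 20.3 and 25.0 times). Its Pearson correlation in log2 CPM was 0.985 with KO replicate 1 and 0.986, 0.985 and 0.981 with those wild-type replicates. The cause of this likeness was not tested. At these depths 3 counts correspond to 0.146 to 0.239 CPM; such floors cover counting error only.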

Additional observations from a re-analysis of the deposited data

Results flagged for a closer look

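For 30 measures of the 4 wild-type libraries, the gap between the most extreme library and its neighbour was divided by the whole range. In 5 measures a library stood apart by Dixon's criterion, which chance meets about 1 time in 20 for normally distributed values. The measures include transcripts listed at 0 and overlap in their genes, so 5 of 30 cannot be set against that rate. The fraction was 0.862 for *Pcgf6*, where wild-type replicate 4 stood at 23.3 CPM and the others at 19.4 to 19.9 CPM. For Max-202 it was 1.0, with 19.5 CPM in wild-type replicate 4 and 0 in the others. Mga-203 gave 0.976, with 38.9 CPM in wild-type replicate 1 and 0 to 0.933 CPM in the others. Max-205 gave 0.834, with wild-type replicate 2 low at 0.554 CPM against 2.73 to 3.17 CPM. For the log2 ratio of *Mga* over *Max* it was 0.892, the ratio being 1.13 in wild-type replicate 2 against 0.82 to 0.85 elsewhere. KO libraries, 3 in number, were not examined in this way, and the cause of these gaps was not tested.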

How the results depend on the processing

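Of the values under the alternatives, 442 were classed as unchanged and 153 were not. A fold change was unchanged if it kept its direction and side of the threshold, and a ratio or share if it kept its direction. A count of calls was unchanged within a fixed factor of the main count, and the summed level if it moved by less than the replicate spread. The cause of a change was not tested unless stated. Genes called (1513) became 2331 with DESeq2, 2522 on log2(TPM + 1), 2506 on log2(TPM + 0.1) and 131 to 2172 without single libraries (fewest without KO replicate 3, most without wild-type replicate 1). Subunits called (1) became 2 with DESeq2 and with the length trend removed, 0 with no scaling, no TPM filter or a TPM filter at 5, and 0 to 2 without single libraries. Called partners (2) ranged from 1 to 4, PCGF paralogs (1) from 0 to 2 and targets (10) from 6 to 12 without single libraries; PCGF paralogs were 0 with RLE, no scaling, both limma fits and both other filters, and the MAX network (0) was 1 in both limma fits. Transcripts called (14) became 2596 with DESeq2, 57 and 50 in the limma fits, 1 without a TPM filter and 1 to 407 without single libraries. The log2 fold change of *Meioc* was 0.63 to 0.88 without single libraries, and 5 of these 7 edgeR fits, those without wild-type replicate 2, 3 or 4 or KO replicate 2 or 3, no longer called it.

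Directions turned mostly near 0 or on the TPM scales, where the all-gene median was -0.23 and -0.25 (-0.083 with no scaling). On log2(TPM + 1) and log2(TPM + 0.1) the log2 fold changes were -0.232 and -0.234 for *Mga*, -0.0588 and -0.0601 for *Max*, -0.0210 and -0.0211 for *Pcgf6*, -0.21 and -0.230 for *Ring1*, -0.0878 and -0.0898 for *Yaf2*, -0.132 and -0.134 for *Wdr5*, and -0.0764 and -0.0770 for *Tfdp2*. *Mga* was -0.0010 with DESeq2, -0.0011 with RLE, -0.068 with no scaling and -0.027 with a TPM filter at 5. *Ring1* was -0.063 with no scaling, -0.011 with the length trend removed and -0.016 with the filter at 5, and *Tfdp2* -0.052 and -0.010 with no scaling and the filter at 5. Without single libraries the ranges were -0.092 to 0.12 for *Mga*, -0.044 to 0.093 for *Ring1*, -0.13 to 0.017 for *Rnf2*, -0.026 to 0.071 for *Tfdp2*, -0.12 to 0.0097 for *Hdac2* and -0.13 to 0.082 for Mga-201. Relative use was -0.022 to 0.0078 for Max-201 and -0.21 to 0.41 for Max-205, and without a TPM filter it was 0.46 for Max-201 and -0.022 for Mga-201. Log2 ratio differences were -0.076 to 0.19 for *Ring1* over *Rnf2* and -0.33 to 0.016 for *Mga* over *Max*. Share differences, in percentage points, were -2.30 to 1.01 (Mga-201), -0.0083 to 2.23 (Mga-203), -1.0 to 0.077 (117-base segment), -7.72 to 35.6 (Max-201), -37.0 to 7.80 (Max-202), -0.081 to 2.11 (Max-205) and -35.6 to 7.72 (27-base exon). The summed level differed by -0.24 in TPM and 0.043 in CPM.

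Replicate numbers showed no pairing of the samples: deviations of same-numbered libraries correlated at -0.044, -0.097 and -0.21. Differently numbered libraries correlated at -0.078 to 0.19 (highest for wild-type replicate 2 with KO replicate 3). Whether samples shared a litter or batch was not tested. With the replicate block 109 genes, 0 subunits, 0 partners, 0 PCGF paralogs, 3 targets and 0 transcripts were called, *Meioc* was at 0.68 (adjusted p = 0.10, edgeR), *Ring1* at -0.0058 and *Tfdp2* at -0.019. With 4 and 3 libraries, the lowest limit of any subunit's 95% interval was -0.31 (*Cbx3*) and the highest 0.58 (*L3mbtl2*) on the log2 scale. What is not excluded differs by gene and is given by its own interval, for *Mga* -0.21 to 0.23. Each library held at least 12537852 counts; 0 to 59 words of a *Max* or *Mga* transcript are found in no other, and the uncertainty of the division between them is not in any of these values.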
